A study of Homo sapiens with 3 samples.

Results

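RNA polymerase II (Pol II) and the factors that carry it through transcription elongation were followed as a group of 38 genes, out of 16030 genes tested, in human colon cancer cells that expressed Cdx1 or Cdx2. The genes were taken by name: a probe was included if its symbol in the platform annotation was that of a Pol II subunit or of a named elongation factor. They comprised 12 Pol II subunits, both DSIF subunits, SUPT6H, both FACT subunits, 4 NELF subunits under their older symbols COBRA1, TH1L, RDBP and WHSC2, 6 subunits of the PAF1 complex (PAF1C), the P-TEFb genes CDK9, CCNT1 and CCNT2 with their inhibitor HEXIM1, the genes ELL, ELL2 and AFF4, the TFIIS genes TCEA1 and TCEA2, and CDK7 and GTF2F1. They were read by 45 of 24460 gene probes, and each of the 38 genes was measured: on all 3 arrays, all of its probes exceeded background in Cy5 and in Cy3.

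DLD1 is a human colon cancer cell line. The TetOff clones used here keep an introduced mouse gene silent while doxycycline (DOX) is in the medium, at 0.5 µg/mL, and express it once DOX is withdrawn. RNA of cells without DOX, expressing FLAG-tagged wild-type Cdx1 for 12 h, Cdx1 for 24 h or Cdx2 for 24 h, was hybridised on a 2-colour array against RNA of the same clone kept non-induced with DOX for the same time. Each of these 3 conditions was measured on 1 array, so the data held 3 ratios per gene and no replicates within a condition. Every induced sample also lacked DOX and was labelled with the same dye, so that Cdx expression, DOX withdrawal and dye cannot be told apart, and Cdx1 and Cdx2 came from different clones.

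Pol II is the enzyme that transcribes the protein-coding genes of the nucleus. Shortly after initiation it is held near the start site by DSIF and NELF, and the kinase P-TEFb releases it by phosphorylating both of them and the polymerase tail. DSIF then travels on with the polymerase, joined by PAF1C, while FACT and SPT6 take histones apart and replace them in its path. Among other questions, the study asked how CDX1 and CDX2 affect the assembly of Pol II with DSIF and PAF1C. The arrays address a separate matter, the mRNA levels of the genes for those proteins.

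All values below are log2 ratios of Cy3 over Cy5, after background correction with an offset of 50 and loess normalization within the array. The direction is likely induced over non-induced: titles, dye labels by source and a figure legend of the study give Cy3 to the induced cells, but the cell line entries of the 2 channels state the opposite, and under those entries all signs given here would be reversed. The human CDX1 and CDX2 probes do not settle it, because the expressed genes were from mouse. In bulk RNA, fewer cells that express a gene and less RNA per cell cannot be told apart. A gene was called higher or lower where its ratio over the 3 arrays had a limma adjusted p under 0.05 across all 16030 genes. This test treats 3 different experiments, 2 of them with Cdx1, as repeats, so it measures how evenly a gene moved in them and not the spread between replicate cultures.

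The genes moved in both directions. Of the 38 genes, 9 were called higher (23.7%, where 18.7% of all genes were) and 11 lower (28.9%, where 12.1% of all genes were), and 18 were not called. The ratio had the same sign on all 3 arrays for 35 of 38 genes, which was so for 65.5% of all genes. The group was bright, with a median brightness rank of 83.9% among all genes tested, and the offset shrinks the ratios of dim genes. The shares over all genes are therefore not those of genes of like brightness, and the part of brightness in these counts was not tested. Most changes were small: the median over the group was -0.13 (Cdx1, 12 h), -0.10 (Cdx1, 24 h) and -0.09 (Cdx2, 24 h), and over all genes it was 0.01 on each array. The higher genes were CTR9, TCEA1, POLR2K, ELL2, CCNT2, CDC73, POLR2J, POLR2B and LEO1. The lower genes were POLR2I, POLR2H, COBRA1, POLR2E, SUPT5H, POLR2L, RDBP, POLR2F, WHSC2, TCEA2 and CDK9, and their direction depended on the normalization: with median centring in place of loess at the same offset, 10 of these 11 had a mean above 0, and 23 genes were called higher (39.8% of all genes) against 1 lower (18% of all genes).

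**Figure D1:**
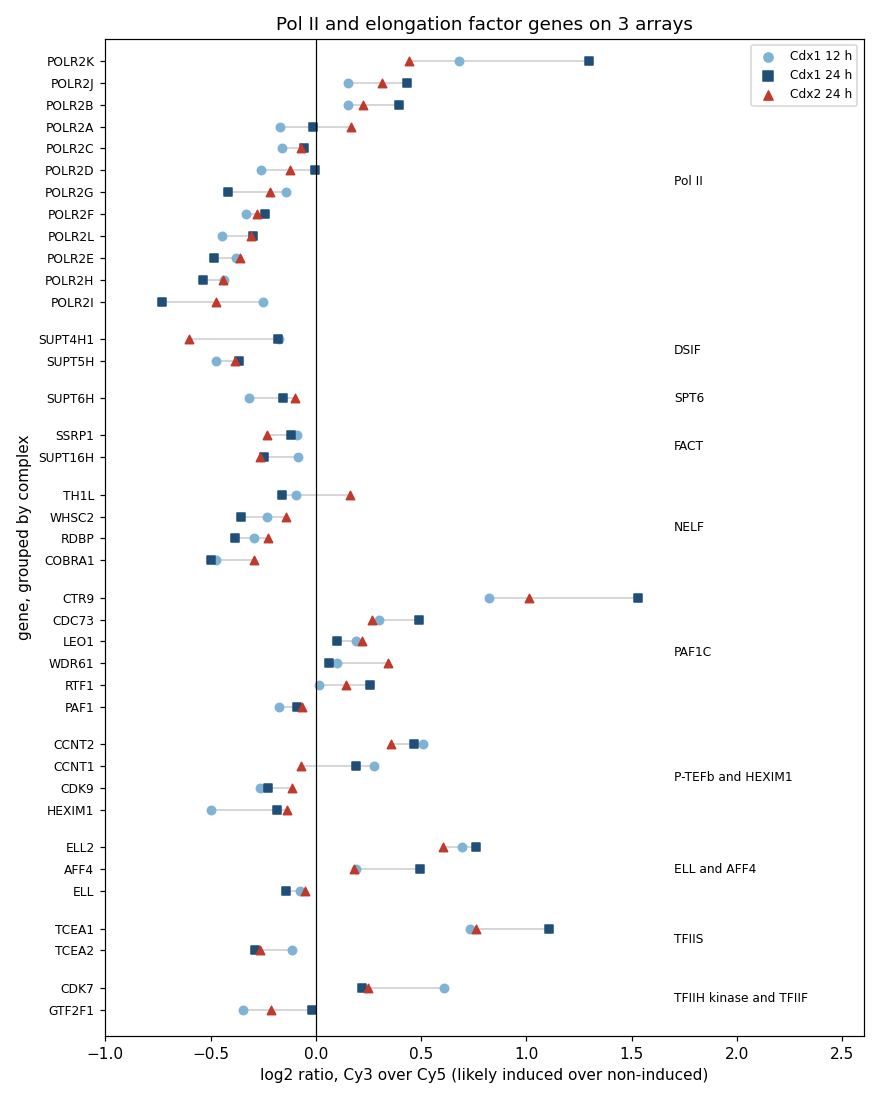
Log2 ratio of Cy3 over Cy5 (likely induced over non-induced, horizontal axis) of the 38 genes, grouped by complex, on the arrays of Cdx1 at 12 h (circles), Cdx1 at 24 h (squares) and Cdx2 at 24 h (triangles), with a grey line from the lowest to the highest array. CTR9, at 0.82, 1.53 and 1.01, lies farthest to the right, and most genes lie within 0.50 of 0 on each array. The genes on the left lie there with loess, and of the 11 called lower, 10 turn to above 0 with median centring at the same offset.

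On single arrays, past 1.5-fold, 5 of the 38 genes were higher with Cdx1 at 12 h (5.94% of all genes) and 0 lower (2.34% of all genes). With Cdx1 at 24 h, 4 were higher (8.68% of all genes) and 1 lower, POLR2I (4.07% of all genes). With Cdx2 at 24 h, 3 were higher (4.61% of all genes) and 1 lower, SUPT4H1 (1.73% of all genes). Past 2-fold, 0 of the 38 genes were higher (1.09% of all genes) or lower (0.374%) with Cdx1 at 12 h. With Cdx1 at 24 h, 3 were higher, CTR9, POLR2K and TCEA1 (2.29% of all genes), and 0 lower (0.892%), and with Cdx2, 1 was higher, CTR9 (0.93%), and 0 lower (0.25%). With 1 array a condition these counts carry no test.

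The promoters of 4 genes that stood out in the results are shown, CTR9 and CCNT2 as genes called higher, and SUPT5H and POLR2E as genes called lower. Each is the RefSeq window from 250 bases before to 50 bases after the annotated start, on GRCh38.p14, written 5′ to 3′ along the gene. They lie at chr11:10750996-10751295 on the plus strand (CTR9), chr2:134918572-134918871 on the plus strand (CCNT2), chr19:39445332-39445631 on the plus strand (SUPT5H) and chr19:1095326-1095625 on the minus strand (POLR2E). Capitals mark matches, on either strand, to a GC box (GGGCGG or CCGCCC) and to an ETS-type motif (CCGGAAG or CTTCCGG).
CTR9: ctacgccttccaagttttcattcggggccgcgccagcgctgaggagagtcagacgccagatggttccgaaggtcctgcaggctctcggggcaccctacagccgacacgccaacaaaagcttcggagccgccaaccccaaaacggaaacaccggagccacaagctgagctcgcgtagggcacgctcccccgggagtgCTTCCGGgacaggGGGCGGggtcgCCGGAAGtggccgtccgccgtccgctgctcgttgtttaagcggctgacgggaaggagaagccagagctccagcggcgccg
CCNT2: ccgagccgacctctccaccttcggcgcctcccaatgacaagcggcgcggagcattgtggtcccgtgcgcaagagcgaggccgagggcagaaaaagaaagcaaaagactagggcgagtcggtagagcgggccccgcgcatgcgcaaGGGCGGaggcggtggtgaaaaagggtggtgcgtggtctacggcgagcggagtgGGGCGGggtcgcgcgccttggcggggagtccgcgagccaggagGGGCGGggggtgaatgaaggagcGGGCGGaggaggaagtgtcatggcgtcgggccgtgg
SUPT5H: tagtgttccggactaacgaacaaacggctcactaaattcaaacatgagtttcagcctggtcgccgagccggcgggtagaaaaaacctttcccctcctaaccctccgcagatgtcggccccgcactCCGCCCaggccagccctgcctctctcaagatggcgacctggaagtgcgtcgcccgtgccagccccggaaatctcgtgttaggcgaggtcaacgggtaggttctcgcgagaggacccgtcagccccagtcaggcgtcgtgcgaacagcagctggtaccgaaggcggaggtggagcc
POLR2E: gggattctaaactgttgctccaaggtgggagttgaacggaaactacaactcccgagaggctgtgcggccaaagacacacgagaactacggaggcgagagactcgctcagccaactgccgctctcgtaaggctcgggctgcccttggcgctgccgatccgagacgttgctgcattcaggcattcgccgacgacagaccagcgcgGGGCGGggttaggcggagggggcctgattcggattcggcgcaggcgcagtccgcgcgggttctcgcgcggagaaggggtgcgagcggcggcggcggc
The CTR9 window held 2 ETS-type matches around 1 GC box, the CCNT2 window 4 GC boxes, and the SUPT5H and POLR2E windows 1 GC box each.

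A RefSeq window could be matched to 31 of the 38 genes, with 37 windows in all. The GC box was in 24 of these genes, and in 73.0% of their windows against 59.6% of the windows of all genes tested. The ETS-type motif was in 13 of them, and in 37.8% of windows against 13.8%. It lay in 1 of the 4 genes called higher that had a window (CTR9), in 4 of the 10 called lower that had one (POLR2F, RDBP, WHSC2 and CDK9) and in 8 genes not called. The core letters of CDX sites, TTTAT or ATAAA, lay in 6 genes, POLR2B, SUPT6H, SSRP1, HEXIM1, TCEA2 and GTF2F1, and in 16.2% of windows against 26.6%. The E-box CACGTG was in SUPT16H, CCNT1, AFF4 and CDK7, and in 13.5% of windows against 8.56%. The TATA box (TATAAA or TTTATA, which overlaps the CDX letters) was in HEXIM1 alone, against 8.42% of the windows of all genes tested. Such matches describe letters, and binding was not measured at these promoters.

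Among the 12 Pol II subunits, 3 were called higher, 5 lower and 4 neither way, with a median mean ratio of -0.19. POLR2A, the largest subunit, which carries the catalytic centre and the tail, was not called. Its ratios were -0.17 (Cdx1, 12 h), -0.02 (Cdx1, 24 h) and 0.17 (Cdx2, 24 h). The mean was -0.01 ± 0.08 (moderated SE from limma, n = 3 arrays, limma adjusted p = 0.965). Each ± value in this text is such an SE, for which limma draws the variance of a gene towards that of all genes. It is not the plain SE of the 3 ratios, and for genes whose arrays differ widely it is smaller. POLR2B, the second largest subunit, which forms the active site together with POLR2A, was at 0.15, 0.40 and 0.22 in the same order, a mean of 0.26 ± 0.06 (limma adjusted p = 0.040). The array with Cdx1 at 24 h was the highest of the 3, and the call was lost when any 1 array was left out.

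POLR2K, a small zinc-binding subunit shared with Pol I and Pol III, had the largest mean ratio of the subunits. Its spot read 1026, 1141 and 1197 in Cy5 and 3106, 5895 and 3410 in Cy3, in that order of arrays. The Cy3 signal was highest with Cdx1 at 24 h, and before any scaling between arrays the Cy5 signal differed less than the Cy3 signal. The ratios were 0.68, 1.29 and 0.44, a mean 1.75-fold higher (0.81 ± 0.18, limma adjusted p = 0.035). Without the array of Cdx1 at 12 h the mean was 0.87 and the adjusted p 0.106. POLR2J, which takes part in the assembly of the core enzyme, had ratios of 0.15, 0.43 and 0.31 (mean 0.30 ± 0.06, limma adjusted p = 0.034), on a dimmer spot of 76.9 to 97.1 in Cy5.

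The other 4 shared subunits were all called lower. POLR2E read 3556, 2682 and 1913 in Cy5 and 5023, 3920 and 3087 in Cy3, in the order Cdx1 at 12 h, Cdx1 at 24 h and Cdx2. Cy3 exceeded Cy5 there, as it did for most probes: the median raw ratio of Cy3 to Cy5 was 2.76, 3.41 and 3.09 over all gene probes. After loess the log2 ratios of POLR2E were -0.38, -0.48 and -0.36, a mean 1.33-fold lower (-0.41 ± 0.04, limma adjusted p = 0.0087). POLR2H was at -0.44, -0.54 and -0.44 (mean -0.47 ± 0.04, limma adjusted p = 0.0075). POLR2L followed at -0.44, -0.30 and -0.31 (mean -0.35 ± 0.05), and POLR2F at -0.33, -0.24 and -0.28 (mean -0.28 ± 0.04), both with all 3 arrays close together. With median centring at the same offset the means of these 4 genes turned to 0.11 (POLR2E), 0.05 (POLR2H), 0.16 (POLR2L) and 0.24 (POLR2F).

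POLR2I, a subunit known from yeast to act in start site choice and proofreading, was the lowest gene of the group, at -0.25, -0.73 and -0.47 (mean -0.49 ± 0.10, limma adjusted p = 0.030), and its mean turned to 0.04 with median centring at the same offset. Cdx1 at 24 h was the low array, and the adjusted p was 0.058 without it and 0.093 without Cdx2. POLR2G and POLR2D, which form the stalk of the enzyme, had means of -0.26 ± 0.07 (limma adjusted p = 0.0501) and -0.13, and POLR2C, an assembly subunit, -0.10, none of them called. The gap between POLR2K and POLR2I, the 2 ends of the enzyme's genes, was 0.93, 2.02 and 0.92 on the 3 arrays. Its mean was 1.29, also 1.29 with median centring, and 1.32 in the authors' own values. The 2 genes were picked as the ends by these same ratios. They were of like brightness (mean log2 of 11.07 and 11.09), so a change of centring could hardly move the gap.

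**Figure D2:**
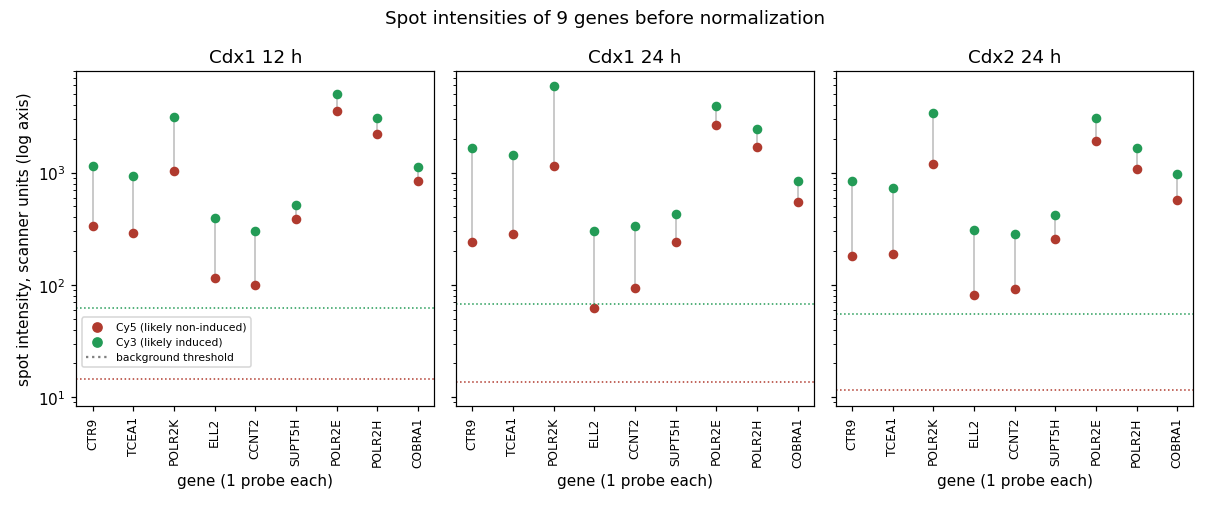
Spot intensity in scanner units (log axis) of 9 genes before normalization, 1 panel per array, with Cy5 (likely non-induced) in red, Cy3 (likely induced) in green and the background thresholds as dotted lines. Cy3 lies above Cy5 for every gene shown, and the distance is wide for CTR9, at 240 against 1649 with Cdx1 at 24 h, and narrow for POLR2E, at 2682 against 3920; which genes count as lower depends on the normalization, and POLR2E, POLR2H, COBRA1 and SUPT5H turn to slightly above 0 with median centring at the same offset.

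DSIF holds the paused polymerase and later keeps it processive. SUPT5H, its large subunit (SPT5), read 388, 242 and 257 in Cy5 and 520, 425 and 418 in Cy3, in the order Cdx1 at 12 h, Cdx1 at 24 h and Cdx2. Its ratios were -0.48, -0.37 and -0.38, a mean 1.33-fold lower (-0.41 ± 0.04, limma adjusted p = 0.0084), with little difference between the arrays, and 0.00 with median centring at the same offset. SUPT4H1, the small subunit (SPT4), was at -0.17, -0.18 and -0.60, lower with Cdx2 than on either Cdx1 array, and was not called (mean -0.32 ± 0.10, limma adjusted p = 0.085).

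NELF, which acts at the pause, had 3 of its 4 subunits called lower. COBRA1 (NELF-B) was at -0.47, -0.50 and -0.30, a mean 1.34-fold lower (-0.42 ± 0.05, limma adjusted p = 0.012). RDBP (NELF-E), the RNA-binding subunit, was at -0.29, -0.38 and -0.23 (mean -0.30 ± 0.05), and WHSC2 (NELF-A) at -0.23, -0.35 and -0.14 (mean -0.24 ± 0.05). The 3 means turned to 0.08, 0.22 and 0.16 with median centring at the same offset. TH1L (NELF-C/D) was not called: it was at -0.09 and -0.16 with Cdx1 and at 0.16 with Cdx2. The gap between TH1L and COBRA1 was 0.38, 0.34 and 0.46.

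The histone chaperones were below 0 on every array and not called. SUPT6H (SPT6) was at -0.32, -0.16 and -0.10 (mean -0.19, limma adjusted p = 0.070). The FACT subunits SUPT16H and SSRP1 had means of -0.20 (limma adjusted p = 0.054) and -0.15 (limma adjusted p = 0.079). With median centring at the same offset their means were 0.13, 0.32 and 0.38.

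PAF1C joins the elongating polymerase and is needed for histone marks over transcribed genes. Of its 6 genes, 3 were called higher, 0 lower and 3 neither way. CTR9, the scaffold subunit, had the largest mean ratio of all 38 genes. Its spot read 334, 240 and 181 in Cy5 and 1152, 1649 and 844 in Cy3, in the order Cdx1 at 12 h, Cdx1 at 24 h and Cdx2. The ratios were 0.82, 1.53 and 1.01, all above those of the other PAF1C genes, and the mean was 2.18-fold higher (1.12 ± 0.15, limma adjusted p = 0.012). CTR9 was read by 1 probe, whose promoter window is given above.

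CDC73 (parafibromin), a tumour suppressor and the subunit known to bind β-catenin, was at 0.30, 0.49 and 0.27 (mean 0.35 ± 0.06, limma adjusted p = 0.019). LEO1 was at 0.19, 0.10 and 0.22 (mean 0.17 ± 0.04, limma adjusted p = 0.045), a call lost when any 1 array was left out. WDR61, at 0.10, 0.06 and 0.34, and RTF1, at 0.01, 0.26 and 0.14, were not called, and the 2 probes of RTF1 differed by up to 0.39. PAF1 itself lay below 0 on each array, at -0.17, -0.09 and -0.06 (mean -0.11 ± 0.04, limma adjusted p = 0.120). Of its 2 probes 1 was dim, at 23.8 to 35.1 in Cy5, and the mean of PAF1 was -0.24 in the authors' own values. CTR9 therefore stood above PAF1, within the same complex, by 0.998, 1.62 and 1.08 on the 3 arrays, by a mean of 1.51 with median centring and by 1.49 in the authors' own values.

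P-TEFb consists of the kinase CDK9 and a cyclin T, and HEXIM1 holds it inactive. CCNT2 was called higher. Its spot read 100.3, 94.2 and 92.8 in Cy5 and 305, 335 and 286 in Cy3, in the order Cdx1 at 12 h, Cdx1 at 24 h and Cdx2, before any scaling between arrays. The ratios were 0.51, 0.47 and 0.36, a mean 1.36-fold higher (0.44 ± 0.05, limma adjusted p = 0.0085). CCNT1, the other cyclin, was at 0.28 and 0.19 with Cdx1 and -0.07 with Cdx2, and was not called. CDK9 was called lower at -0.27, -0.23 and -0.11 (mean -0.20 ± 0.05, limma adjusted p = 0.038), but it lost the call without any 1 array and its mean was 0.16 with median centring at the same offset. HEXIM1 was at -0.50, -0.18 and -0.14, farthest from 0 with Cdx1 at 12 h, and was not called (limma adjusted p = 0.079).

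ELL proteins speed up the polymerase, and AFF4 is the scaffold that ties them to P-TEFb in the super elongation complex. ELL2 had the lowest adjusted p of the group. It read 115, 62.0 and 80.9 in Cy5 and 394, 300.1 and 310 in Cy3, in the same order of arrays. The ratios were 0.70, 0.76 and 0.61, a mean 1.61-fold higher (0.69 ± 0.05, limma adjusted p = 0.0063). Its paralogue ELL was at -0.07, -0.14 and -0.05 and was not called, so ELL2 stood above ELL by 0.77, 0.90 and 0.66. The ELL spot was dim, at 29.8 to 37.4 in Cy5, and its mean was -0.32 in the authors' own values, where the mean gap was 1.25. AFF4 was at 0.19, 0.49 and 0.18 (mean 0.29 ± 0.08, limma adjusted p = 0.057). AFF4 was dim, at 18.2 to 25.2 in Cy5 where background ended at 11.5 to 14.5, and its mean was 1.04 in the authors' own values, which add no offset.

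TFIIS restarts stalled polymerase by stimulating cleavage of the RNA. TCEA1, the widely expressed form, read 288, 283 and 190 in Cy5 and 931, 1422 and 733 in Cy3, in the order Cdx1 at 12 h, Cdx1 at 24 h and Cdx2. Its ratios of 0.73, 1.11 and 0.76 were high on all 3 arrays, a mean 1.82-fold higher (0.87 ± 0.09, limma adjusted p = 0.0085). TCEA2 was called lower at -0.11, -0.29 and -0.27 (mean -0.22 ± 0.05, limma adjusted p = 0.037). It was the dimmest gene of the group, at 20.5 to 33.3 in Cy5 and 65.1 to 76.1 in Cy3, where background in Cy3 ended at 55.3 to 68.1. Its mean was -1.28 in the authors' own values, and -0.36 with median centring at the same offset.

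CDK7, the TFIIH kinase that phosphorylates the polymerase tail and activates CDK9, was at 0.61, 0.22 and 0.25 and was not called (mean 0.36 ± 0.09, limma adjusted p = 0.051). GTF2F1, the large subunit of the initiation and elongation factor TFIIF, was at -0.35, -0.02 and -0.21 and was not called (mean -0.19). The 2 genes were farthest apart with Cdx1 at 12 h, by 0.95.

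The effect of the processing on direction was examined for all 38 genes. The authors' own values, which were centred on the median with no offset, had the same sign as loess for 38 of 38 genes and kept all 11 lower genes below 0. Normexp with an offset of 0 and median centring did the same. With median centring at an offset of 50, 36 of 38 genes were above 0. Among the remaining settings with all 3 arrays, the sign turned for POLR2A alone, to 0.0017 with an offset of 200 and loess. Over all 16030 genes the ratio with median centring at offset 50 was correlated with brightness at Pearson r = 0.54 and Spearman rho = 0.73, and with loess at r = 0.02 and rho = 0.05. Over the 38 genes the order was different, with r = 0.12 and rho = 0.02 for median centring at offset 50 and r = -0.27 and rho = -0.42 for loess. These are descriptions across genes, which share the arrays and are not independent replicates, and the cause of the change in sign was not tested. Over 15 fits, with and without each array, CTR9, TCEA1, ELL2 and CCNT2 were called higher in each one, and POLR2E, POLR2H, POLR2L and SUPT5H were called lower in all but median centring at offset 50.

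**Figure D3:**
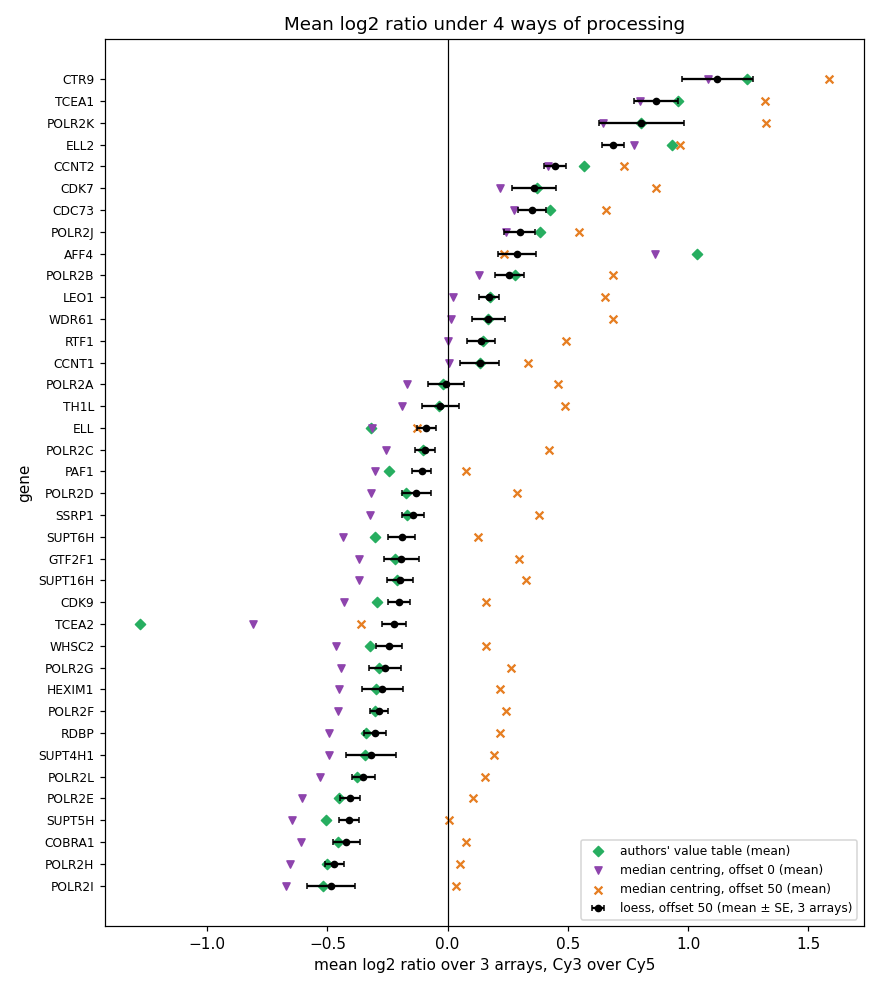
Mean log2 ratio over the 3 arrays (Cy3 over Cy5, likely induced over non-induced) of each of the 38 genes under 4 ways of processing. Black circles with bars of the moderated SE from limma stand for loess at offset 50, and green diamonds for the authors' values. Purple triangles stand for median centring at offset 0 and orange crosses for median centring at offset 50. The crosses lie above 0 for 36 of 38 genes, including 10 of the 11 called lower, whereas the other 3 settings give each gene the same sign.

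At 24 h the ratio with Cdx2 minus that with Cdx1 ran from -0.85 (POLR2K) to 0.32 (TH1L), with a median of -0.01. The SD of this difference over all genes was 0.21. The SD between 2 probes of a gene, combined over the 2 arrays, was 0.28, and 32 of the 38 genes lay within it. A limma contrast that set the Cdx2 array against the average of the Cdx1 pair (1 residual degree of freedom) called 0 of 38 genes and 0 of 16030 genes. At an unadjusted p under 0.05 there were 3 of the 38 genes, against 5.27% of all genes: SUPT4H1 was lower with Cdx2 by a difference of -0.42 (adjusted p = 0.935), CCNT1 by -0.31 and TH1L was higher by 0.29 (adjusted p = 0.941 for both). The spread in this contrast is that between Cdx1 at 12 h and 24 h, so a failure to pass does not show that the 2 proteins acted alike.

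**Figure D4:**
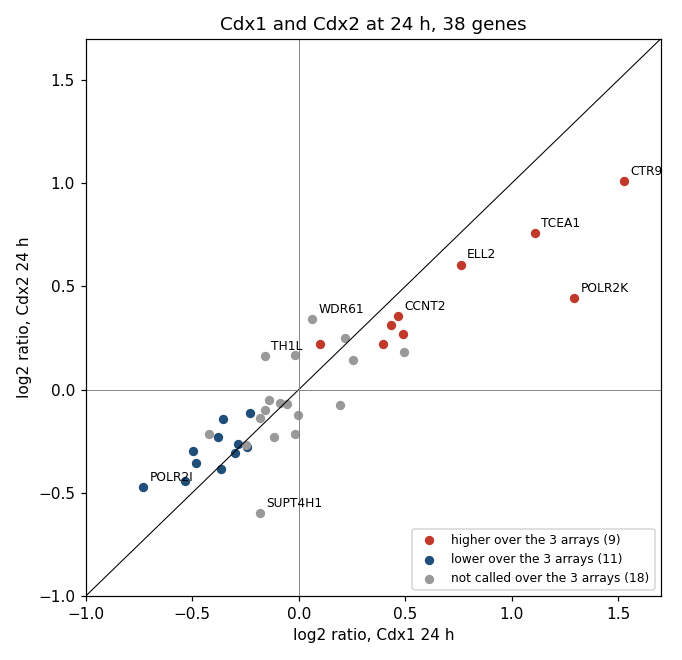
Log2 ratio of Cy3 over Cy5 (likely induced over non-induced) with Cdx1 at 24 h (horizontal axis) against Cdx2 at 24 h (vertical axis) for the 38 genes, coloured by their call over the 3 arrays, with the line of equal values. POLR2K lies farthest below the line, at 1.29 against 0.44, and CTR9 is at 1.53 against 1.01. With median centring at the same offset 10 of the 11 genes in blue, called lower, have a mean above 0.

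The Cy5 channel, likely the non-induced cells, also differed between arrays. The Cdx2 array at 24 h minus the Cdx1 array at 24 h gave log2 differences in Cy5 of -0.75 for POLR2I, -0.61 for POLR2H and -0.54 for TH1L, and of 0.30 for ELL2 and 0.29 for POLR2A, where the SD over all genes was 0.25. Between the 2 arrays of the Cdx1 clone, 24 h minus 12 h gave -0.60 for POLR2F, -0.55 for POLR2D and -0.50 for HEXIM1, where the SD over all genes was 0.21. A difference between clones therefore cannot be told apart from one between arrays, and its part in the ratios was not tested. Between 12 and 24 h of Cdx1 the difference in ratio was largest for CTR9, at 0.70, and changed most in the other direction for POLR2I, by -0.48, where the SD over all genes was 0.21. With 1 array a time these values carry no test.

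Related gene lists were set beside the group. General transcription factors had 12 of 29 genes called higher and 1 lower, among them GTF2B, which recruits Pol II to the promoter, at a mean of 1.32 ± 0.17, GTF2H5 at 0.87 and MNAT1, the partner of CDK7, at 0.84, with TAF10 lower at -0.33 (0.20 with median centring at the same offset). Mediator had 9 of 29 higher, led by MED30 at 0.91, MED13 at 0.60 and MED31 at 0.57, and 1 lower, MED15 at -0.16 (0.05 with that centring). Integrator had 5 of 14 higher, led by INTS7 at 0.65, INTS2 at 0.50 and INTS12 at 0.31, and 1 lower, INTS10 at -0.30 (0.19 with that centring).

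Among 30 other elongation factors, 10 were called higher, led by RPRD1A at 0.67, LARP7 at 0.64 and RNF20, a histone H2B ubiquitin ligase, at 0.59. Lower were 2 of them, ELL3 at -0.42 and MEPCE at -0.18. With median centring at the same offset they were at -0.10 and 0.12, and neither was called. The subunits with POLR1 symbols, named for Pol I, the polymerase of ribosomal RNA, had 0 of 8 called higher and 5 lower. Not all of them are particular to Pol I. Among the lower were POLR1E at -0.75, POLR1C at -0.60 and POLR1H at -0.58. With that centring these 3 were at -0.39, -0.087 and -0.092, and the list had 2 genes called lower and 1 higher. Those with POLR3 symbols, for Pol III, had 3 of 9 higher, POLR3GL at 1.14, POLR3G at 0.57 and POLR3F at 0.52. Lower were 2, POLR3K at -0.73 and POLR3A at -0.26. With that centring POLR3K was at -0.21 and still called lower, and POLR3A was at -0.083 and not called. The counts are descriptions beside the 18.7% of all genes called higher and 12.1% called lower.

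Of the colon epithelial markers with a probe, 9 of 9 exceeded background in Cy5 and Cy3 on all arrays, and of the markers of fibroblasts, endothelium and blood, 4 of 9 were (CDH5, DCN, PDGFRB and VWF). The share of gene probes above background in both channels was 86.4% to 87.5%. No spot of the 38 genes was saturated, the brightest being 5895.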

How the data were processed

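RNA of 3 pairs of induced and non-induced DLD1-TetOff cultures was amplified, labelled and hybridised to 3 TORAY 3D-Gene arrays. The deposited scanner files gave spot intensity in Cy5 (635 nm) and Cy3 (532 nm), and the file headers give lines fitted between 3 scanner gains and no background subtraction. The authors' value table held log2 ratios of Cy3 over Cy5, which equalled the blank-subtracted ratios centred on the median, to within 0.000501.

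Intensities were corrected by normexp (offset 50) and normalized by loess (span 0.3, blanks at weight 0) with limma 3.58.1 (R 4.3.3). Left out were 1, 6 and 3 flagged probes. Background was set from 2680 blank spots, trimmed by 5% at both ends, and ended 2 SD over their mean. Probes past it in Cy5 or Cy3 on all arrays were averaged per gene. An offset shrinks the ratios of dim probes. Of 20236 probes with a symbol, 17238 were current against RefSeq, 2899 were updated, 98 ambiguous and kept, and 1 had no match. The number of arrays limits the precision.

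Shared change was tested by an intercept fit in limma (two-sided, Benjamini-Hochberg over all genes, 2 residual degrees of freedom), a choice made here because the study's methods name no test for the arrays. Named genes were all 38 members and, from each related list, up to 3 higher and 3 lower called genes with the largest mean ratio. The members and lists were chosen with earlier results of these data known. Alternatives were median centring, offsets of 0 and 200, blank subtraction, the authors' values, a stricter and a looser filter on dim probes, the brightest probe, other variance models and leaving out each array.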

Additional observations from a re-analysis of the deposited data

Results flagged for a closer look

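In 3 genes the Cdx2 array lay on the opposite side of 0 from both Cdx1 arrays, as log2 ratios of Cy3 over Cy5. The other 35 of 38 genes had the same sign on all 3 arrays, which 65.5% of all genes had. The share of all genes with the Cdx2 array alone on the other side was not counted. POLR2A, the largest Pol II subunit, was at 0.17 with Cdx2 and at -0.17 and -0.02 with Cdx1. TH1L, a NELF subunit, was at 0.16 with Cdx2 and at -0.09 and -0.16 with Cdx1. CCNT1, a cyclin of P-TEFb, was at -0.072 with Cdx2 and at 0.28 and 0.19 with Cdx1. These differences in direction were not tested with replicates, and in the limma contrast of Cdx2 against Cdx1 none of the 3 passed after adjustment.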

How the results depend on the processing

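Under every alternative, CTR9, TCEA1, ELL2 and CCNT2 remained called higher. With median centring at offset 50, 23 genes were called higher and 1 lower, with 12 higher and 0 lower past 1.5-fold on Cdx1 at 24 h and 11 and 0 on Cdx2, and these means turned above 0: POLR2A 0.46, POLR2C 0.42, POLR2D 0.29, POLR2E 0.11, POLR2F 0.24, POLR2G 0.26, POLR2H 0.052, POLR2I 0.036, POLR2L 0.16, SUPT4H1 0.19, SUPT5H 0.0039, SUPT6H 0.13, SUPT16H 0.32, SSRP1 0.38, COBRA1 0.077, TH1L 0.49, RDBP 0.22, WHSC2 0.16, PAF1 0.076, CDK9 0.16, HEXIM1 0.22 and GTF2F1 0.30. Past 1.5-fold lower, offset 0 with loess and blank subtraction each gave 2, 4 and 2 genes on the 3 arrays. Offset 200 gave 5 higher (11.9% of all genes) and 7 lower (7.69%). Past 1.5-fold it gave 2 higher on Cdx1 at 12 h and 1 higher and 0 lower on Cdx2, and POLR2A was at 0.0017. The authors' values gave 7 lower (14.5% of all genes), with 1, 4 and 2 past 1.5-fold lower and 7 past 1.5-fold higher on Cdx1 at 24 h. A trended, robust variance gave 17 lower (15.6% of all genes). Offset 0 with median centring, chosen after seeing the data, gave 21 lower (22.5% of all genes). It gave 5, 9 and 5 past 1.5-fold lower and 3 higher on Cdx1 at 12 h. For median centring at offset 50 the shares of all genes were 39.8% higher and 18.0% lower. Shares of all genes past 1.5-fold were not counted under these alternatives. The cause was not tested beyond the settings themselves.

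Leaving out 1 array, the higher calls ranged from 5 to 6 and the lower from 5 to 7, both lowest without Cdx1 at 12 h, with fewer arrays in each fit. Of all genes, 8.68% to 14.0% were called higher and 4.45% to 7.50% lower in these fits. Lost without any 1 array were the calls of POLR2B, LEO1, WHSC2, CDK9 and TCEA2, without Cdx1 at 12 h also those of POLR2K, POLR2F, COBRA1, RDBP and CDC73, without Cdx1 at 24 h those of POLR2I, POLR2J and RDBP, and without Cdx2 those of POLR2I and POLR2J. The mean of POLR2A then ranged from -0.093 to 0.077, above 0 without Cdx1 at 12 h, and that of TH1L from -0.13 to 0.035, above 0 without Cdx1 at 24 h and, at 0.0012, without Cdx1 at 12 h. No paired analysis was possible because each condition has 1 array, which already compares an induced with a non-induced culture. Dim genes depended most on the offset, as with AFF4 and TCEA2.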
